A study of Mus musculus with 29 samples.

Results

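A set of 10 genes of the neuronal cytoskeleton was followed through the brain RNA-seq libraries of mouse embryos at stage E11.5. They are 5 genes of neuronal intermediate filaments (Nefl, Nefm, Nefh, Ina and Prph) and 5 genes of microtubules and growth cones (Tubb3, Map2, Dcx, Stmn2 and Gap43). The members were taken by symbol from the 25239 genes of the count tables, as a set chosen with earlier results of these data known. All 10 were among the 15383 genes that passed a filter on low counts. There were 4 groups, each of 2 pools of dissected tissue from several embryos: wild-type forebrain, forebrain of embryos with the hs267-853 knockout, wild-type midbrain, and midbrain of embryos with the hs654 knockout. The names of the knockouts are those of the labels, and the deletions remove developmental enhancers. It was not established whether hs267-853 stands for 1 enhancer or 2. Each deletion was profiled in a single tissue. The strain is not given in the sources used here, and a pool is not 1 animal, so variation between embryos is averaged within it.

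Neurofilaments are the intermediate filaments of axons and are assembled from light, medium and heavy chains, with alpha-internexin as an early partner in the central nervous system. Peripherin is a related filament protein, best known from neurons that send axons into the periphery. Microtubules give the growing axon its track and its shape, and the tubulin isotype, associated proteins and destabilisers listed here are widely used to recognise young neurons soon after their last division. At this stage the brain wall is still mostly dividing neural progenitors, and the first neurons lie at its outer surface. In bulk tissue, fewer neurons and less RNA per neuron cannot be told apart.

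Promoters were available in the RefSeq table of assembly GRCm38.p6 for 5 of the 10 members (Dcx, Ina, Map2, Prph and Tubb3), as 300 bases from 250 before to 50 after a transcription start. The 3 printed here belong to the gene with the smallest tissue difference described below (Tubb3), to an intermediate filament gene between the extremes (Ina) and to the gene with the largest fitted one (Prph). They lie at chr8:123411303-123411602, chr19:47014431-47014730 and chr15:99054924-99055223, each on the plus strand. Capitals mark matches to TATAAA, the core of a TATA box, or to CANNTG, the E-box core that proneural basic helix-loop-helix proteins bind. Both motifs were searched on both strands, and they share no letters in these windows.

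Tubb3: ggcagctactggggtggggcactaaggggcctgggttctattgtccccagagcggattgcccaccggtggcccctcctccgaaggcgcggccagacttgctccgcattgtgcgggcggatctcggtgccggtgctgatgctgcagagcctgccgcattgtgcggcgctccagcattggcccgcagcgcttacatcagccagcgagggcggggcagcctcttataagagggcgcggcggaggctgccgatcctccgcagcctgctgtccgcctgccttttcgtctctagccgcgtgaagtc

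Ina: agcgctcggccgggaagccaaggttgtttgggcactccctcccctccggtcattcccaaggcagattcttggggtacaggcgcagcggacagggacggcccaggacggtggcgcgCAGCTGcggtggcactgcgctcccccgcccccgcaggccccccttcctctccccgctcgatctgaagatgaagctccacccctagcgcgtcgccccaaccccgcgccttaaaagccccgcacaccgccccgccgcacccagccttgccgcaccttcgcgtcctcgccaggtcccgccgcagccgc

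Prph: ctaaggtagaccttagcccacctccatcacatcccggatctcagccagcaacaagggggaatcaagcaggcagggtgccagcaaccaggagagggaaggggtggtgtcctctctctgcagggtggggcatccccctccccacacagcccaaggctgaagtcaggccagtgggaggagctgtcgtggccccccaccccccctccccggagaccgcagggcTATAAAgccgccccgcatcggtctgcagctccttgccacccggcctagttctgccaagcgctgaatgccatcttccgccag

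Prph held 1 TATAAA, whose first base was at -31 from the start, and no CANNTG. Ina held 1 CANNTG at -135 and no TATAAA. Tubb3 and Map2 held neither motif, and both listed Dcx starts had a TATAAA, at -193 and -98. Over all 32851 promoters of the table, 13.6% held TATAAA and 72.3% held CANNTG. A match is a description of the letters only.

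Nefl and Nefm are neighbours on chromosome 14, at chr14:68083863-68089095 and chr14:68119545-68125004 of GRCm38.p6, with 30.4 kb between them. The other 8 members lie on 8 other chromosomes. Some members share bases with other genes in that annotation: Ina with Nt5c2 on the other strand (494 bp), Nefm with the long noncoding RNA A230070E04Rik (1253 bp), and Nefh with Gm35321 and Ap1b1. The longest overlap was that of Map2 with the long noncoding RNA Gm51629 on the other strand (13152 bp). Map2 also overlaps Gm24729, Gm18034 and Gm25411, and Gap43 overlaps the microRNA Mir6540 (108 bp). Tubb3 has a pseudogene, Tubb3-ps1, on chromosome 6. Whether the counting used strand is not given in the sources used here, so counts of these members are uncertain where reads could fall to the partner.

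Levels are given in CPM, the counts of a gene relative to the scaled total of its library. The total count ran from 9051632 to 18024406 per library. The tissue labels were checked with regional genes: En2, a midbrain and hindbrain transcription factor, had 0 counts in the 4 forebrain libraries and 130.2 to 158 CPM in midbrain. One library stood apart. Replicate 1 of the hs267-853 knockout was at -33.7 on the second principal component of all tested genes, against -1.66 to 18.3 in the other 7 libraries, and values without it are given beside the knockout comparisons. CPM does not correct for transcript length, and levels are compared between libraries and not between genes.

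The widest gaps between the tissues, as fold differences, were those of the neuronal intermediate filament genes Prph, Nefl and Nefm. Nefl, the light chain that neurofilament assembly requires, had 13.2 and 11.53 CPM in wild-type forebrain (12.3 ± 1.16, SD, n = 2) and 17.6 and 13.4 CPM in hs267-853 knockout forebrain. In midbrain it had 199.5 and 197 CPM in wild type (198 ± 1.74, SD, n = 2) and 212 and 204 CPM in the hs654 knockout. All 4 midbrain libraries were far above all 4 forebrain libraries. Nefm, the medium chain, had 33.2 and 20.8 CPM in wild-type forebrain, 37.6 and 24.95 CPM in knockout forebrain, 229 and 238 CPM in wild-type midbrain, and 243 and 264 CPM in knockout midbrain. The tissues were again apart, and within each forebrain group replicate 1 was above replicate 2.

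Ina, which encodes alpha-internexin, had 122 and 93.3 CPM in wild-type forebrain, 142 and 82.8 CPM in knockout forebrain, 314 and 329 CPM in wild-type midbrain, and 360.2 and 375 CPM in knockout midbrain. Its forebrain groups overlapped each other and did not reach the midbrain range. Nefh and Prph were detected by few reads. Nefh, the heavy chain, which enters neurofilaments late in development, had 9 to 13 counts per forebrain library (0.697 to 0.882 CPM) and 22 to 44 counts per midbrain library (1.89 to 4.26 CPM). Prph, which encodes peripherin, had 2, 4, 5 and 2 counts in the forebrain libraries and 52, 51, 47 and 45 counts in the midbrain libraries. In CPM, Prph was at 0.131 to 0.310 in forebrain and 3.29 to 4.92 in midbrain. Forebrain Prph is thus near the 3 counts taken here as the least that a library can show.

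The microtubule and growth cone genes were also lower in every forebrain library than in any midbrain library. Tubb3, the neuronal class III beta-tubulin, had 623 and 531 CPM in wild-type forebrain, 702 and 487 CPM in knockout forebrain, 1020.1 and 955 CPM in wild-type midbrain, and 1067 and 1106 CPM in knockout midbrain. Map2, a microtubule-associated protein of dendrites and cell bodies, had 423 and 392 CPM in wild-type forebrain, 459.8 and 348 CPM in knockout forebrain, 779 and 744 CPM in wild-type midbrain, and 788 and 820.5 CPM in knockout midbrain. Both genes had forebrain groups that overlapped and midbrain libraries that lay above every forebrain library. Dcx, the doublecortin of migrating neurons, had 315 and 256 CPM in wild-type forebrain, 351 and 238 CPM in knockout forebrain, 550.2 and 526 CPM in wild-type midbrain, and 585 and 595 CPM in knockout midbrain.

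Stmn2, a microtubule destabiliser of growth cones, had 111 and 94.96 CPM in wild-type forebrain, 127 and 83.4 CPM in knockout forebrain, 296 and 277 CPM in wild-type midbrain, and 296 and 311 CPM in knockout midbrain. Gap43, a growth cone membrane protein and protein kinase C substrate, had 50.3 and 43.4 CPM in wild-type forebrain, 57.1 and 44.1 CPM in knockout forebrain, 173 and 155 CPM in wild-type midbrain, and 175 and 179 CPM in knockout midbrain. For each of these 5 genes both forebrain group means were below both midbrain group means, and that of hs654 knockout midbrain was highest. The gap between the tissues was wider than the range of any one group, while the step between the genotypes within a tissue was tested separately below.

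**Figure D1:**
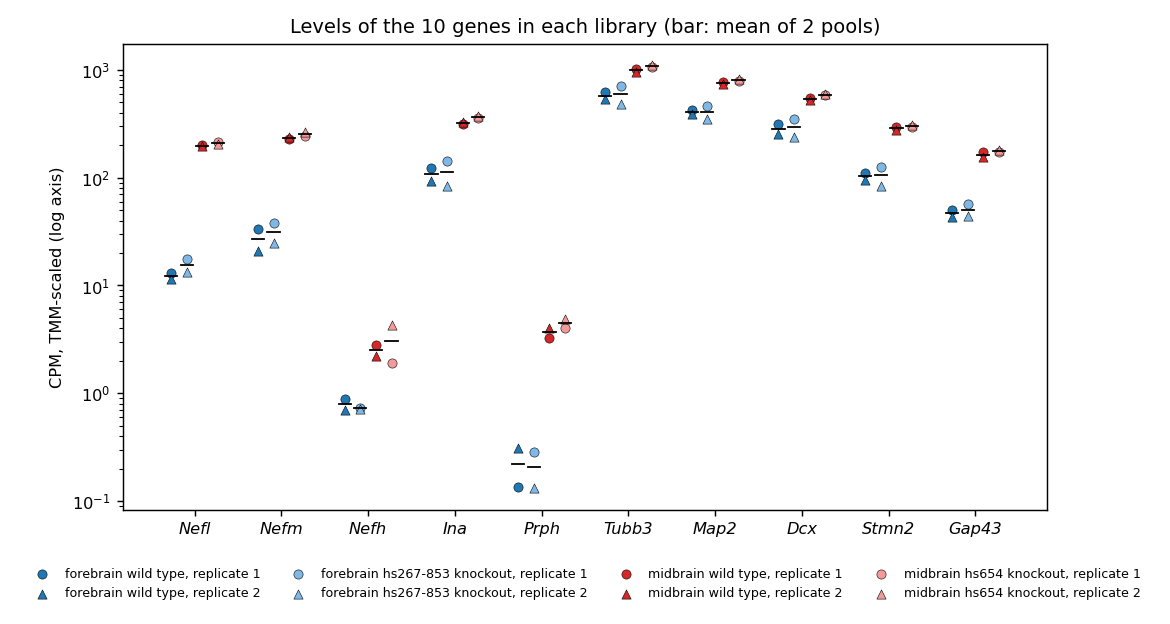
Level of each cytoskeletal gene in each of the 8 libraries, in CPM on a log axis, with 1 point per pool and the groups in separate colours. For every gene the 4 midbrain points lie above the 4 forebrain points, from 11.53 to 17.6 CPM against 197 to 212 CPM for Nefl and from 487 to 702 CPM against 955 to 1106 CPM for Tubb3.

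The first comparison asked how these genes differ between wild-type forebrain and wild-type midbrain. By the quasi-likelihood F test of edgeR, adjusted over all 15383 genes by the Benjamini-Hochberg method, 10 of 10 members were lower in forebrain at an adjusted p under 0.05. Of all genes tested, 15.3% were called lower in forebrain and 14.3% higher, and 32.7% had both forebrain libraries below both midbrain libraries, as all 10 members did. Prph reached the filter level in 0 of 4 forebrain libraries and passed only through midbrain, so it had to differ. Without it, 9 of 9 members were lower.

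Nefl had a log2 difference, forebrain minus midbrain, of -4.0 (SE 0.107, edgeR adjusted p = 8.25e-11), a level 16.0-fold lower. Nefm differed by -3.10 (SE 0.179, edgeR adjusted p = 4.38e-08), or 8.59-fold. Ina differed by -1.57 (SE 0.179, edgeR adjusted p = 2.53e-05), or 2.98-fold. These chains meet in the same filaments, and their gaps spanned more than 2 log2 units.

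Prph had a fitted log2 difference of -4.02 (SE 0.511, edgeR adjusted p = 6.74e-05), which rests on 6 counts in wild-type forebrain and 103 in wild-type midbrain. From those summed counts the ratio of midbrain to forebrain was 16.8, with an exact 95% interval (Clopper-Pearson) of 7.44 to 46.7 that covers counting error only. The fitted value was -4.66 without forebrain wild type replicate 2 and -3.53 without forebrain wild type replicate 1. Nefh differed by -1.66 (SE 0.474, edgeR adjusted p = 0.0185), or 3.15-fold. Its call was lost when either wild-type forebrain pool was left out (edgeR adjusted p = 0.0701 for replicate 1 and 0.112 for replicate 2), and when the first wild-type midbrain pool was (0.119).

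Among the microtubule and growth cone genes, Gap43 differed most, by -1.81 on the log2 scale (SE 0.110, edgeR adjusted p = 7.15e-08), or 3.496-fold. Stmn2 followed at -1.47 (SE 0.140, edgeR adjusted p = 4.69e-06), or 2.78-fold. Dcx at -0.91 (SE 0.135), Map2 at -0.90 (SE 0.0980) and Tubb3 at -0.77 (SE 0.126) were 1.88-fold, 1.87-fold and 1.71-fold lower in forebrain, with edgeR adjusted p of 0.000251, 1.66e-05 and 0.000514. The last 3 values lie within 1 or 2 standard errors of each other and set no order among these genes. The median over these 5 was -0.91 and that over all genes tested was 0.0012. Over the intermediate filament genes it was -2.38 for the 4 without Prph.

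**Figure D2:**
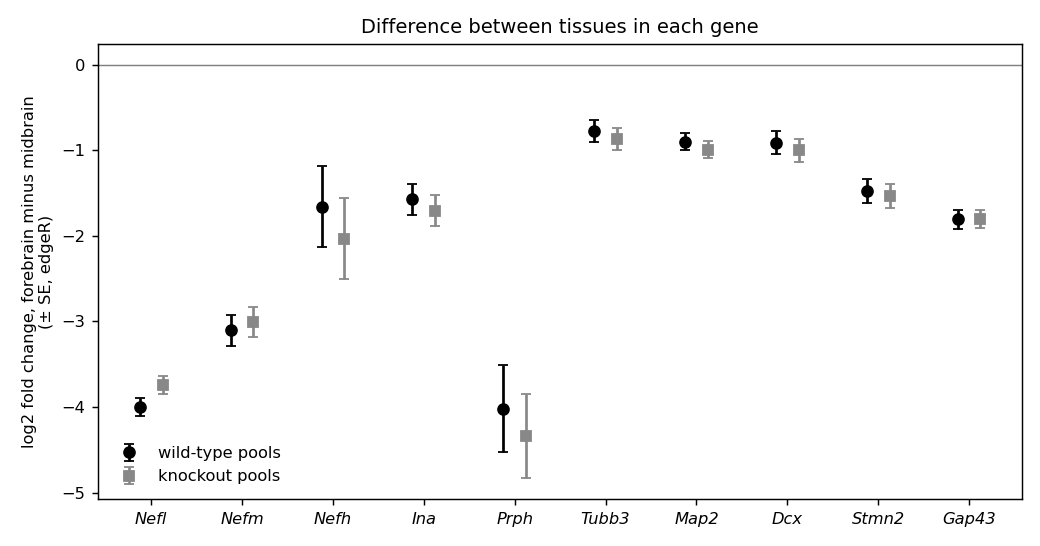
Log2 difference, forebrain minus midbrain, of each cytoskeletal gene in the wild-type and in the knockout libraries, with bars of 1 standard error from edgeR. Each value lies below 0, from -0.77 for Tubb3 to -4.02 for Prph in wild type, and the bars are widest for Prph and Nefh, which had the fewest counts.

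The same tissues could be compared in the 4 knockout libraries, whose means do not enter the wild-type contrast. Here each tissue also carried its own deletion. All 8 libraries shared the filter, the scaling and the fitted spread, so these tests are not independent of the wild-type ones. All 10 members were lower in forebrain in the edgeR test, against 14.8% of genes called lower (14.6% higher) and 31.0% with both forebrain libraries below both midbrain libraries. Leaving out Prph, 9 of 9 were lower. Nefl differed by -3.74 (SE 0.103, edgeR adjusted p = 1.1e-10), Nefm by -3.01 and Ina by -1.71. Prph differed by -4.34 (SE 0.494), from 7 counts in forebrain and 92 in midbrain, for a ratio of summed counts of 20.8 (exact 95% interval 9.70 to 53.2). The Prph value was -4.99 without forebrain hs267-853 knockout replicate 1.

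Nefh differed by -2.04 (SE 0.473, edgeR adjusted p = 0.00561), and its call was lost without midbrain hs654 knockout replicate 2 (-1.36, adjusted p = 0.111), the library with its highest level. Gap43 differed by -1.80, Stmn2 by -1.53, Dcx by -1.0, Map2 by -0.99 and Tubb3 by -0.87, with edgeR adjusted p from 7.13e-08 to 0.000199. Without the forebrain knockout library that stood apart, 10 of 10 members were still called lower. As in wild type, Nefl and Nefm had wide gaps and Tubb3, Map2 and Dcx narrow ones. Without that library Nefl was at -3.95, Nefm at -3.34, Ina at -2.15 and Tubb3 at -1.16.

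The members made up 0.132% to 0.185% of the counts of a forebrain library and 0.347% to 0.391% of those of a midbrain library. The forebrain maximum was that of hs267-853 knockout replicate 1, and the other 3 reached 0.168%. Their makeup differed too. The 5 intermediate filament genes held 8.77% to 10.5% of the members' summed CPM in forebrain and 21.0% to 22.5% in midbrain. Tubb3 held 36.8% to 37.1% in forebrain and 27.9% to 28.6% in midbrain. These shares are of CPM, uncorrected for length, and are compared between tissues only.

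The unequal gaps were also read as ratios within each library. Tubb3 was taken as the reference after its values were seen, because its tissue difference was the smallest. The log2 ratio to Tubb3 was higher in all 4 midbrain libraries than in all 4 forebrain libraries for each of the other 9 members, which was so for 3.70% of all genes tested. Midbrain minus forebrain, the ratio differed by 3.03 for Nefl, 2.74 for Prph and 2.26 for Nefm. It differed by 0.97 for Gap43, 0.84 for Ina, 0.80 for Nefh and 0.68 for Stmn2. For Dcx and Map2 the shift was 0.14 and 0.12, and their tissue ranges only just failed to meet, at -0.98 and -0.89 for Dcx and at -0.439 and -0.438 for Map2. Since the reference was picked for its small gap, the direction of these ratios carries no support of its own.

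The rest of the neuronal cytoskeleton was described with lists of related genes, in the same wild-type comparison and beside a median log2 difference of 0.0012 over all genes. In that comparison 15.3% of all genes tested were called lower in forebrain and 14.3% higher. Of 10 other tubulins, 4 were lower in forebrain, 2 were higher and 4 did not pass. The lower ones were Tubb2a (-1.58, SE 0.104), Tubb4a (-1.18), Tuba1a (-0.73) and Tubb2b (-0.66), isotypes known from neurons. The higher ones were the broadly expressed Tubb4b (0.30) and Tuba1b (0.26), and the list's median was 0.095.

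Microtubule-associated genes were lower in forebrain for 13 of 16, with a median of -0.41 and 3 not past the threshold. Mapt, which encodes tau of axonal microtubules, had a mean of 37.7 CPM in wild-type forebrain and 154 CPM in wild-type midbrain, a log2 difference of -2.03 (SE 0.168, edgeR adjusted p = 1.26e-06). Stmn3, of the same family as Stmn2, differed by -1.05, and Map6, which stabilises microtubules against cold, by -1.03. Among 15 growth cone and axon membrane genes, 11 were lower and none higher, with a median of -0.69. Cntn2, an axonal adhesion molecule also called TAG-1, differed by -2.18 (SE 0.132), the neuronal adhesion molecule Nrcam by -1.43 and the collapsin response mediator Dpysl3 by -1.31.

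Axonal transport motors were lower for 8 of 13 (median -0.29), led by the kinesins Kif21a and Kif5a, each at -1.18, and the kinesin light chain Klc1 at -0.70. Of 9 genes of the spectrin and ankyrin membrane skeleton and its linkers, 8 were lower and 1 higher (median -0.68). The largest differences were those of Sptbn4 (-1.44, SE 0.320), Ank3 (-1.32, SE 0.0981), which organises the axon initial segment, and Dst (-1.04). Sptbn4 was low, at 1.29 to 2.32 CPM in forebrain, and these errors set no order between it and Ank3. The 1 higher gene was Add1 (0.17). In the knockout libraries 14.8% of all genes tested were called lower in forebrain. The list counts lower there were 4 of 10 tubulins, 11 of 16 microtubule-associated, 11 of 15 growth cone, 9 of 13 motor and 8 of 9 membrane skeleton genes. Without the library that stood apart these counts were 4, 12, 13, 10 and 8.

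Intermediate filament genes of other cells were called in both directions. Of 11 such genes, 10 were tested, 5 were higher in forebrain and 1 was lower. Vim, the vimentin of progenitors and mesenchyme, differed by -0.03 (SE 0.0504, edgeR adjusted p = 0.732). Nes, which encodes nestin of neural progenitors, was the lower one, at -0.62 (SE 0.0829, edgeR adjusted p = 0.000108), with means of 914 and 1404 CPM in wild-type forebrain and midbrain. The simple epithelial keratins Krt8, Krt18 and Krt19 and the lamins Lmnb1 (0.33) and Lmnb2 (0.28) were the higher ones. Krt19 passed the filter only through forebrain, and without it 4 of 9 were higher. Krt8 stood at 3.12 to 18.2 CPM in forebrain and 1.20 to 1.84 CPM in midbrain, and thus varied widely among the forebrain pools.

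Neuronal genes outside the cytoskeleton were also lower in forebrain. Of 20 pan-neuronal genes 19 were tested, 17 were lower and none higher, with a median of -0.76. Snap25, a synaptic vesicle fusion protein, differed by -1.99 (SE 0.170), Scg3 by -1.30, and the calcium sensor Syt1 by -1.24. The neuronal RNA-binding genes Elavl4 and Elavl3 differed by -0.87 (SE 0.0803) and -0.58 (SE 0.126, edgeR adjusted p = 0.00397). Nefl and Nefm thus had larger fitted differences than any of the 19 pan-neuronal genes, whose values ran from -1.99 to -0.22. Whether the members differ from that list was not tested.

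**Figure D3:**
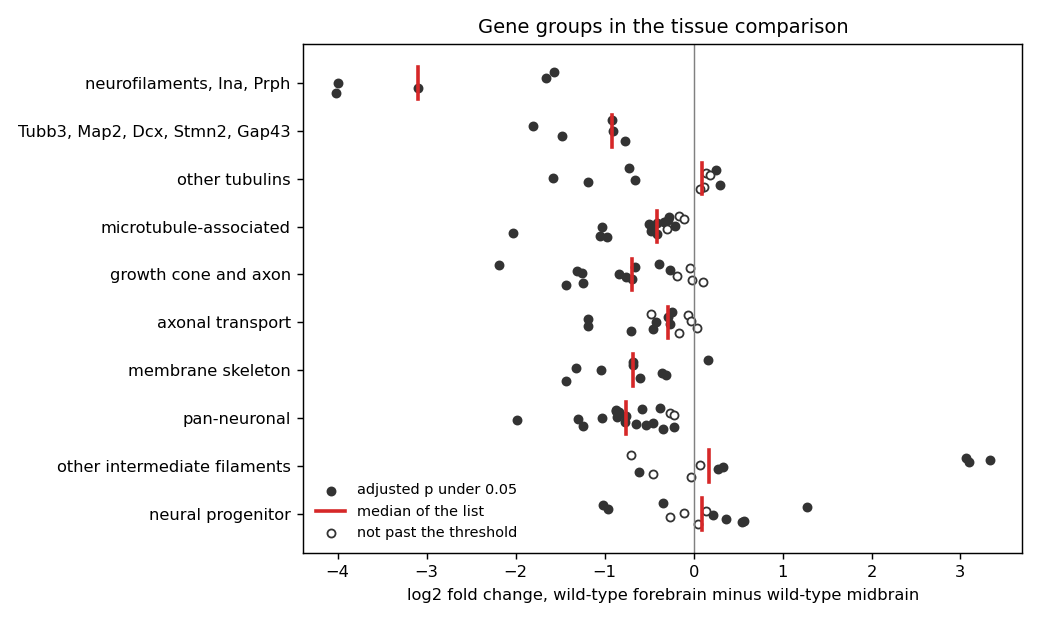
Log2 difference, wild-type forebrain minus wild-type midbrain, of each tested gene in the lists of cytoskeletal, neuronal and progenitor genes, with 1 point per gene. The intermediate filament members run from -1.57 to -4.02, the pan-neuronal genes from -0.22 to -1.99, and the progenitor genes fall on both sides of 0.

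Markers of other cells that the dissected tissue could hold moved with the tissue in part. Of 12 progenitor genes, 5 were higher in forebrain, among them Hes1 (1.28), Sox2 (0.57) and Sox3 (0.54), and 3 were lower, Fabp7 (-1.02), Hes5 (-0.97) and Ccnd1 (-0.35), with a median of 0.098. Of 7 sensory ganglion genes, 4 were lower in forebrain. Prrxl1 and Tlx3 passed the filter only through midbrain and had to differ, which leaves 2 of 5, beside 15.3% of all genes lower. Prrxl1 had 1 count over the 4 forebrain libraries and 5.76 to 7.10 CPM in midbrain, Tlx3 had 0.0655 to 0.397 against 1.961 to 4.71 CPM, and P2rx3 had 2.68 to 3.64 against 3.71 to 6.87 CPM. The summed level of that list was 15.9 to 30.5 CPM in forebrain and 27.8 to 42.5 CPM in midbrain, so the sums overlapped.

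Of 6 cranial motor and cholinergic genes, 5 were tested and 3 were lower in forebrain, Slc5a7 and Slc18a3 among them; 2 of the 5 passed the filter only through midbrain, and of the other 3, 1 was lower. Chat was at 0 in all 4 forebrain libraries and no higher than 0.0860 CPM in midbrain, and Isl1 had 14.5 to 22.5 CPM in forebrain and 8.74 to 12.1 CPM in midbrain. The list summed to 16.9 to 24.7 CPM in forebrain and 14.4 to 19.9 CPM in midbrain. Crest glia genes summed to 8.0 to 13.6 CPM in forebrain and 21.8 to 24.9 CPM in midbrain, with Sox10 at 0.340 to 0.619 against 0.655 to 1.38 CPM.

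Of the non-neural lists, 0 of 9 erythroid genes were called, 3 of 8 mesenchymal genes and 1 of 5 endothelial genes were higher in forebrain, and 2 of 4 macrophage genes were lower, beside 14.3% of all genes called higher and 15.3% lower. The 1 of 5 endothelial genes is near that share. Mesenchymal sums were 1242 to 2193 CPM in forebrain and 1392 to 1945 CPM in midbrain. The part of any of these cells in the tissue difference of the cytoskeletal genes was not tested. Several list genes, Isl1 and Phox2a among them, are also expressed by neurons within the brain.

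The second question was whether the hs654 deletion changed these genes in midbrain. None of the 10 members passed the edgeR test, where 0% of genes were called. At an unadjusted p under 0.05 the count was also 0 of 10, against 3.96% of all genes, and DESeq2 and limma-voom each called 0 members. Tubb3 had a log2 difference, knockout minus wild type, of 0.14 (SE 0.125), Ina of 0.19 (SE 0.171), Nefl of 0.07 (SE 0.0844) and Nefm of 0.12 (SE 0.154), each with an edgeR adjusted p of 0.992.

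All 10 fitted values were above 0, from 0.07 for Nefl to 0.28 for Prph, with a median of 0.13 against -0.0009 over all genes. Of all genes tested, 49.7% had values above 0. Both knockout libraries lay above both wild-type libraries for 8 of 10 members, the exceptions being Nefh and Prph. That order was found in 17.9% of all genes. Members share libraries and cell types, so 8 of 10 is not 8 observations. Of 19 pan-neuronal genes outside the cytoskeleton, 18 also had values above 0, with a median of 0.12 and none called. The same held for non-neural lists: 8 of 8 mesenchymal and 5 of 5 endothelial genes had values above 0 (median 0.16 each), and 0 of 9 erythroid genes did (median -0.46), none of them called. Nefh was the least settled, with 44 and 28 counts in wild type against 22 and 39 in the knockout. Erythroid sums moved with 1 library of this comparison, at 6779 CPM in midbrain wild type replicate 1 and 3364 to 3821 CPM in the other 3 midbrain libraries, and their part in the member values was not tested.

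The third question was whether the hs267-853 deletion changed these genes in forebrain. No member passed the edgeR test (0 of 10), where 0.0130% of genes were called, and DESeq2 and limma-voom also called 0 members. At an unadjusted p under 0.05 there was 1 of 10, against 4.78% of all genes. That gene was Nefl, at 17.6 and 13.4 CPM in the knockout and 13.2 and 11.53 CPM in wild type, a log2 difference of 0.33 (SE 0.125, edgeR adjusted p = 0.984). It was also the 1 member of 10 with both knockout libraries above both wild-type libraries, an order found in 17.2% of all genes, and 13.4 and 13.2 CPM nearly meet.

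Nefm had a log2 difference of 0.21 (SE 0.191), Gap43 of 0.11 (SE 0.113), Ina of 0.06 (SE 0.180), Dcx of 0.04 (SE 0.135), Tubb3 of 0.04 (SE 0.126), Stmn2 of 0.03 (SE 0.141) and Map2 of -0.01 (SE 0.0976), with edgeR adjusted p from 0.984 to 0.996. Nefh, at -0.12 (SE 0.542), and Prph, at -0.04 (SE 0.780), rested on 2 to 13 counts per library, and changes well above these values would not have been detectable at this depth. These values rested on which pool was used. Without knockout replicate 1, Nefl was at 0.12, Tubb3 at -0.25, Stmn2 at -0.31 and Ina at -0.38. Without knockout replicate 2, the group held only replicate 1, the library that stood apart. Nefl was then at 0.51, Tubb3 at 0.28, Stmn2 at 0.29 and Ina at 0.39.

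**Figure D4:**
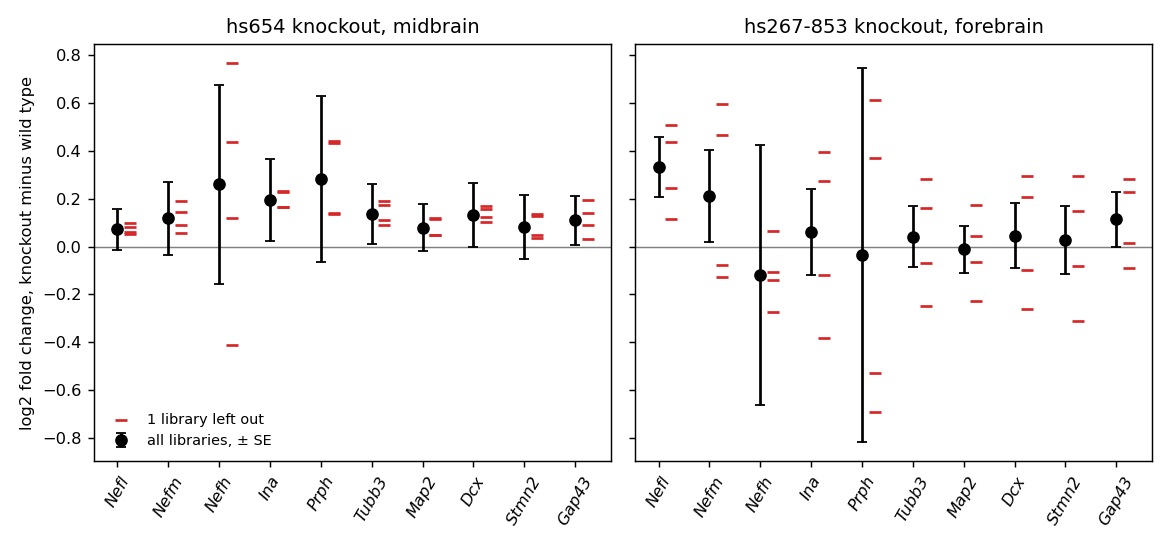
Log2 difference, knockout minus wild type, of each cytoskeletal gene for the hs654 deletion in midbrain and the hs267-853 deletion in forebrain, with bars of 1 standard error from edgeR. The midbrain values run from 0.07 to 0.28 and the forebrain values from -0.12 to 0.33, and the bars of Prph and Nefh are the widest.

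The same model tested whether the effects of the deletions differed from each other. It passed the edgeR threshold for 0 of 10 members, where 0.00650% of genes were called, with adjusted p from 0.996 to 1.00. No member had an unadjusted p under 0.05, against 4.02% of all genes, and DESeq2 and limma-voom called 0 members. The value, forebrain effect minus midbrain effect, was 0.26 for Nefl (SE 0.151, edgeR adjusted p = 0.996), -0.10 for Tubb3 (SE 0.177) and 0.004 for Gap43 (SE 0.152). Without hs267-853 knockout replicate 1 these were 0.05, -0.38 and -0.20, with 0 of 10 members called. With these errors, differences between the effects of the size seen could not be told from 0.

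The pools of the hs267-853 knockout differed from each other by more than the fitted genotype difference for every member but Nefh. Replicate 1 was above replicate 2 for 10 of 10 members, by a median of 0.54 on the log2 scale (0.03 to 0.77), while 52.5% of all genes were higher in replicate 1, with a median difference of 0.012. In wild-type forebrain 9 of 10 members were higher in replicate 1 (median 0.23), in wild-type midbrain 7 of 10 (median 0.066) and in knockout midbrain 1 of 10 (median -0.058). With 2 pools per group these spreads are given as descriptions.

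Other neuronal genes moved with the members from pool to pool. In hs267-853 knockout replicate 1, the mean log2 CPM of the members was 0.24 above the mean of its group, that of 19 pan-neuronal genes was 0.22 above, with 18 of 19 higher, and that of 12 progenitor genes was 0.086 above, with 10 of 12 higher. Mesenchymal genes went the other way, with a summed level of 1242 CPM in that library, 1920.5 CPM in replicate 2 and 2193 and 1745 CPM in the wild-type forebrain pools. What the dissected pools contained was not measured separately, and its part in the spread was not tested.

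**Figure D5:**
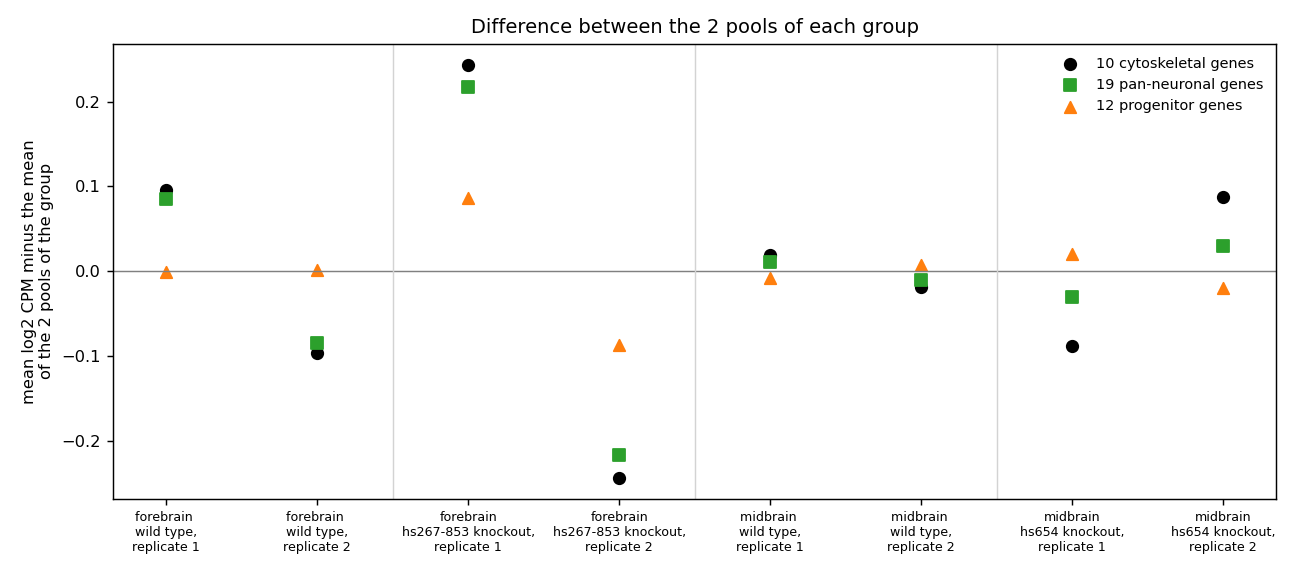
Mean log2 CPM of the 10 cytoskeletal genes, of 19 pan-neuronal genes and of 12 progenitor genes in each pool, minus the mean of the 2 pools of its group. The hs267-853 knockout pools lie 0.24 above and below 0 for the cytoskeletal genes, further apart than the pools of any other group.

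Genes with a profile like that of the members were found by Pearson's r with the mean of the members' scaled log2 CPM over the 8 libraries, among 10600 genes with a mean of at least 10 CPM. The 5 most alike were Cplx2, Nt5c2, Dscam, Dpysl3 and Mapk10, each with r = 0.999. Cplx2, a complexin of synaptic vesicle fusion, had 65.6 to 82.7 CPM in forebrain and 148 to 164 CPM in midbrain. Nt5c2 overlaps Ina on the other strand, and reads of the pair may not be separable. Over 8 libraries in 2 tissues such an r mostly records the tissue difference, which many genes share.

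With the group means removed, which leaves 4 independent deviations, the most alike were Dscam (r = 0.998), Smox (0.997), Hecw1 (0.997), Zmat5 (0.996) and Sema5b (0.995). Dscam, an adhesion molecule of neurites, was the 1 gene in both sets of 5. It had 2.68 to 5.05 CPM in forebrain and 30.4 to 38.5 CPM in midbrain. The hs267-853 knockout pools weigh most in this measure, at 1.41 either side of their mean on the scaled profile, against 0.58, 0.32 and 0.14 for the other pairs. These likenesses describe the libraries and carry no test.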

How the data were processed

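The 8 RNA-seq libraries of the series were used, and the other 21 samples, of enhancer-capture Hi-C, were not analysed here. Samples were grouped by tissue and genotype as titled. The deposited values are raw counts per gene symbol, 1 table per library, which the authors made without normalization. STAR, HTSeq, DESeq2 and the build mm10 are named in the submitters' processing notes, with no version, and the annotation and strand setting are not given in the sources used here. Rows that name no gene (no feature, ambiguous positions, not aligned and the like) entered no library size and no test. Of all counts in genes, outside features and at ambiguous positions, genes held 40.7% to 44.1%, positions outside features 55.4% to 58.9% and ambiguous ones 0.431% to 0.488%. Total counts per library ran from 9051632 to 18024406, which puts 3 counts, taken as the least a library can show, at 0.170 to 0.328 CPM.

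From the deposited counts, edgeR 4.0.16 (R 4.3.3) was run with filterByExpr, TMM scaling and a quasi-likelihood fit of 1 mean per group to all 8 libraries (common dispersion 0.0058, 4 residual and 8.75 prior degrees of freedom). All p-values are two-sided and adjusted by the Benjamini-Hochberg method over 15383 genes, with a threshold of 0.05. Standard errors were computed from the F statistics and fold changes. CPM used TMM-scaled library sizes, and log2 CPM a prior count of 2. Separate pools are stated to be biological replicates. The p-values rest on the spread between the 2 pools per group, shared over the 4 groups and drawn toward that of other genes. Both pools of each group differed by more than counting noise, with chi-square values of 3.75 to 7.74 times their degrees of freedom, and were counted as 2 samples. The fit was tested on simulated counts.

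The members and the lists were chosen with earlier results of these data known. Named genes were the members, of each list up to 3 with the largest difference in each direction past the threshold in wild type with a mean of at least 1 CPM, Vim, Nes, Mapt, Elavl3 and Elavl4, and the 5 most alike by each measure. Other genes (Tubb2b among the tubulins, regional and marker genes) were named after their values were seen. Some list genes that the rule would name are not reported here. Positions, overlaps and promoters came from RefSeq tables of GRCm38.p6. As alternatives, scaling was by RLE or upper quartile, the low-count filter was dropped (any gene with a count) or set to a mean of 50, the tool was limma-voom (limma 3.58.1) or DESeq2 1.42.0, the replicate number was added as a block, the fit was limited to the 4 libraries compared, and single libraries were left out in turn. Counts of list genes without the forebrain knockout library that stood apart were added after the data were seen.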

Additional observations from a re-analysis of the deposited data

How the results depend on the processing

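The count of members past the threshold was 10 in both tissue comparisons under RLE and upper-quartile scaling, no filter, DESeq2, limma-voom and only the 4 libraries compared, and 8 with a mean of at least 50 counts, where Nefh and Prph were not tested. With 1 library left out it was 9 to 10 in wild type and 9 to 10 in the knockouts, Nefh being the gene lost. For both deletions and their difference it was 0 under each of these settings, except that without forebrain hs267-853 knockout replicate 2 it was 1 (Nefl), so the range with a library left out was 0 to 1 for hs267-853; 209 genes in all were called there, against 2 with all libraries and 13 with DESeq2. With a library left out, the log2 differences that changed sign were, for hs654, -0.41 to 0.77 for Nefh; for hs267-853, -0.13 to 0.60 for Nefm, -0.27 to 0.066 for Nefh, -0.38 to 0.39 for Ina, -0.69 to 0.61 for Prph, -0.25 to 0.28 for Tubb3, -0.23 to 0.17 for Map2, -0.26 to 0.29 for Dcx, -0.31 to 0.29 for Stmn2, -0.089 to 0.28 for Gap43; and for the difference between the effects, -0.24 to 0.48 for Nefm, -0.90 to 0.29 for Nefh, -0.58 to 0.20 for Ina, -0.97 to 0.33 for Prph, -0.38 to 0.14 for Tubb3, -0.31 to 0.10 for Map2, -0.39 to 0.16 for Dcx, -0.39 to 0.21 for Stmn2, -0.20 to 0.17 for Gap43. The last of these, 0.0040 with all libraries, was also -0.010 with RLE scaling, -0.0092 with no filter, -0.016 with a mean of at least 50 counts and -0.011 with DESeq2. Without a filter, list genes past the threshold numbered 6 for hs654, 9 for hs267-853 and 10 for the difference, against 0. Calls over all genes rose too in that setting. Of 20235 genes tested there, 22, 161 and 111 were called, against 0, 2 and 1 of 15383 with the filter. The cause of these changes was not tested. Replicate numbers did not pair the pools: correlations of same-numbered deviations ran from -0.0255 to 0.0670. With the replicate number as a block, the members called were 10 and 10 in the tissue comparisons and 0 in the others, and Gap43's difference between the effects was -0.0036. With 2 pools per group a library left out leaves 1 in its group, assumed to vary like the others. Depth limits Nefh and Prph in forebrain, where 2 to 13 counts stood behind each value.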
